A study of Mus musculus with 2 samples.

Results

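The genes described here, 10 of the 33696 in the files, are known for their response to blood flow and to stretch, and they were followed through the cells of the mouse dura mater, the outermost membrane around the brain. They were taken by gene symbol: the transcription factors Klf2, Klf4 and Klf6, the endothelial products Nos3, Thbd and Edn1, the channels Piezo1 and Piezo2, and the secreted matrix-associated proteins Ccn1 and Ccn2. Dura came from female mice after sham surgery, or 14 days after the jugular veins were ligated (JVL-14). The time since sham surgery and the number of mice behind each library are not given in the sources used here. After perfusion with saline, dura lifted off the skullcap was broken up with collagenase D and DNase, suspensions of 2 meninges were joined in a well, and 20000 of the sorted live singlets entered a 10x 3' chip. Each group has 1 library, so no test across animals was possible, and the ligature cannot be told apart from differences between mice, dissections or library preparations.

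Blood moving over the endothelium exerts shear stress. Steady laminar shear raises KLF2 and KLF4 through MEK5, ERK5 and MEF2 factors, and these in turn raise endothelial nitric oxide synthase and thrombomodulin and lower endothelin-1, whereas low or disturbed flow is known for adhesion molecules such as ICAM1 and VCAM1. Stretch and stiff matrix act through mechanically gated Piezo channels and through YAP and TAZ, which bind TEAD factors on the promoters of CCN1 and CCN2. The same Krüppel-like factors are also made outside the endothelium, where they take part in lymphocyte quiescence and traffic, in myeloid differentiation and in early responses to stimulation, cell isolation included.

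Promoter sequence was matched for 6 of the 10 genes and is shown for the 3 whose stretch before the transcription start held a motif tied to flow or stretch signalling. Sequences are from RefSeq on GRCm38.p6, whereas the reads were aligned to mm39. Capitals mark the MEF2 box in Klf2, the TEAD core CATTCC and the TATA box TATAAA in Ccn1, and CATTCC in Edn1.
Klf2: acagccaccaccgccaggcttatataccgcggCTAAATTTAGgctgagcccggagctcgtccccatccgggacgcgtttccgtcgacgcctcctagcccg
Ccn1: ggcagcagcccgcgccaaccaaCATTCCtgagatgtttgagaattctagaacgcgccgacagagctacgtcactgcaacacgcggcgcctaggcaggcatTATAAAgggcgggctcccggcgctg
Edn1: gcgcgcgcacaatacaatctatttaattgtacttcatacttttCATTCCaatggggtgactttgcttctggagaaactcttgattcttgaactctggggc
The Klf2 stretch is chr8:72318912-72319011 on the plus strand, the Ccn1 stretch chr3:145649986-145650110 on the minus strand and the Edn1 stretch chr13:42301226-42301325 on the plus strand. Both strands of the 250 bases before the start were searched for 4 motifs. The MEF2 box was present in 2.92% of all 32851 promoters of that length, CATTCC in 12.6%, TATAAA in 12.4% and CCAAT in 33.8%. The CATTCC of Edn1 overlaps a CCAAT match on the same strand. Klf6 held 4 CCAAT matches, Piezo1 held 1 TATAAA and Klf4 held none of the 4 motifs. A match is a description of the letters only.

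Counts were unique molecular identifiers (UMIs), 33996641 in sham and 18796260 in JVL-14, and 4672 and 2471 cells were retained with medians of 4502.5 and 4530 UMIs. The libraries shared 2 barcodes, 1 of them among retained cells. Cells were clustered without the 10 genes, and clusters were named from markers, so that "fibroblast" stands for fibroblast-like and likewise below. The comparison took 11 classes, each holding at least 20 cells per library. There were 168 sham and 46 JVL-14 blood endothelial cells, and, in the same order, fibroblasts 1461 and 686, arachnoid barrier cells 345 and 121, and macrophages 711 and 345. Monocytes (100 and 40), dendritic cells (135 and 61), neutrophils (181 and 112), mast cells (72 and 26), type 2 innate lymphoid cells (140 and 50), T cells (42 and 28) and B cells (170 and 164) made up the rest. Levels are UMIs of the gene per 1000000 UMIs of the class (CPM). Brackets hold exact 95% intervals, and ratios are JVL-14 over sham. The intervals cover counting error only, take UMIs as independent, and are too narrow where few cells hold most of the UMIs. A gene was measured in a class if its summed count was at least 20 and its mean level at least 20 CPM, and it was past the fold if its ratio was at least 1.5 or at most 1/1.5.

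**Figure D1:**
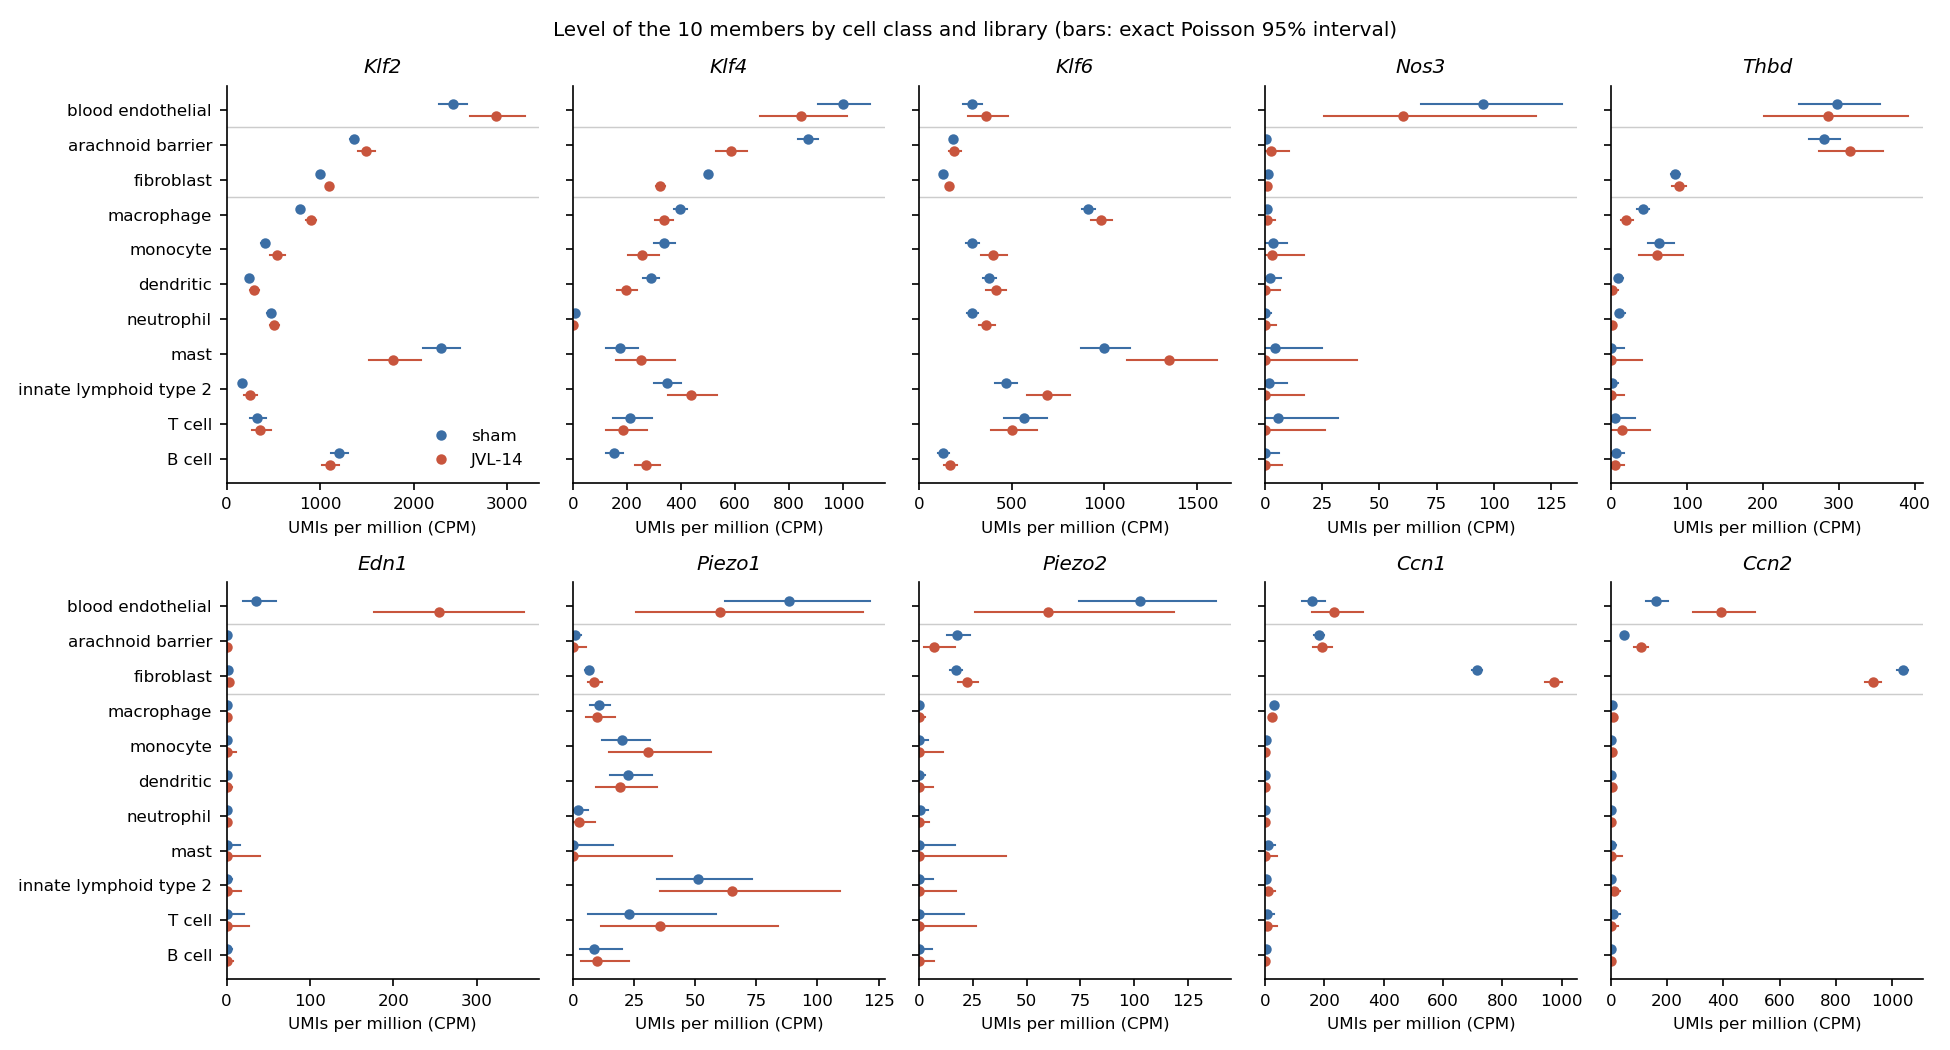
Level of each of the 10 genes (CPM, horizontal axis, its own scale in each panel) in 11 cell classes (vertical axis), sham in blue and JVL-14 in red, with 95% Poisson bars from 1 library each. Nos3, Edn1 and Piezo2 stand highest in blood endothelial cells, Ccn1 and Ccn2 in fibroblasts, and Klf6 in mast cells and macrophages.

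Across all classes, 51 ratios of a gene in a class could be measured. Of these, 10 were past 1.5-fold, and in 7 the counting interval also excluded 1. Of all measured genes, 3.99% in fibroblasts, 8.75% in macrophages, 13.1% in arachnoid barrier cells, 23.7% in monocytes, 24.9% in B cells, 29.3% in type 2 innate lymphoid cells and 33.6% in endothelial cells were past the fold in either direction. None of the 10 genes was past the fold in dendritic cells, neutrophils, mast cells or T cells, where 19.1%, 17.6%, 33.6% and 34.2% of all measured genes were, in either direction. The 7 were higher Edn1 and Ccn2 in endothelial cells, higher Ccn2 in arachnoid barrier cells, higher Klf4 in B cells, higher Klf2 in type 2 innate lymphoid cells, lower Klf4 in fibroblasts and lower Thbd in macrophages. Klf2 and Klf6 leaned towards JVL-14 in most classes, by less than 1.5-fold in nearly all, and Klf4 leaned towards sham in most. Klf2 and Klf4 thus lay on opposite sides in 7 classes: in endothelial cells, arachnoid barrier cells, fibroblasts, macrophages, monocytes, dendritic cells and T cells the ratio of Klf2 was above 1 and that of Klf4 below 1.

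Klf2, the main flow-induced transcription factor of endothelium, was highest in blood endothelial cells in both libraries. Its level there was 2419 CPM (2272 to 2572) in sham against 2885 CPM (2604 to 3189) in JVL-14, a ratio of 1.19 (1.06 to 1.34). The small excess in JVL-14 rested on few cells, since 5 cells held 41.4% of the JVL-14 UMIs against 16.5% in sham. Without the 5 highest cells of each library the log2 ratio was -0.028, and removing 5 cells takes a larger part of 46 cells than of 168. Klf2 was detected in 88.1% and 91.3% of endothelial cells, or in 88.3% and 82.4% after each cell was thinned to 1500 UMIs. Within the endothelial cluster present in both libraries (cluster 12, below), the levels were 2544 and 2810 CPM, with a ratio of 1.10 (0.972 to 1.25) whose interval included 1.

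Mast cells followed in the sham order at 2293 CPM, within counting error of endothelium, then arachnoid barrier cells at 1361 CPM, B cells at 1207 CPM and fibroblasts at 1003 CPM. Mast cells were the class where Klf2 was lower in JVL-14 beyond counting error, at 1785 CPM and a ratio of 0.778 (0.648 to 0.93). Of the 11 classes, 9 had a Klf2 ratio above 1, in 7 of them beyond counting error. In fibroblasts the level was 1003 CPM in sham against 1096 CPM in JVL-14, a ratio of 1.09 (1.06 to 1.13). In macrophages it was 784 and 902 CPM, a ratio of 1.15 (1.07 to 1.24), and in monocytes 407 and 539 CPM, a ratio of 1.33 (1.10 to 1.59). All of these fell short of 1.5-fold.

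The sole class past the fold for Klf2 was type 2 innate lymphoid cells, resident producers of type 2 cytokines. The level was 162 CPM in sham against 251 CPM in JVL-14, a ratio of 1.55 (1.08 to 2.19), in a class where 11.2% of all measured genes were past 1.5-fold upward. Klf2 was the 1 gene past the fold upward among 4 measured, and none was past it downward, where 18.1% were. Its UMIs sat in few cells, with 68.5% of the JVL-14 UMIs in 5 cells, and without the 5 highest cells of each library the log2 ratio was -0.0053. In T cells, where KLF2 maintains quiescence, the 50 JVL-14 UMIs all came from 5 of 28 cells, and the ratio of 1.10 (0.736 to 1.63) was not distinguishable from 1.

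Klf4, which shares flow-responsive targets with Klf2 and also acts in monocytes and stromal cells, was likewise highest in endothelium. The endothelial level was 999 CPM (905 to 1099) in sham against 842 CPM (693 to 1013) in JVL-14, a ratio of 0.843 (0.678 to 1.04). Arachnoid barrier cells, the epithelium-like sheet under the dura, came next at 869 CPM in sham against 583 CPM in JVL-14, a ratio of 0.671 (0.603 to 0.746) that stopped just short of the fold. There 75.1% of sham and 50.4% of JVL-14 cells had a Klf4 UMI, with median depths of 6571 and 3603 UMIs, and after thinning the shares were 52.8% and 42.3%. The ratio was 0.398 (0.254 to 0.602) in arachnoid cluster 11 and 0.752 (0.672 to 0.838) in cluster 25. In neutrophils, a class with next to no Klf4, 4.42% and 0.893% of cells had a UMI at median depths of 7058 and 5454, so the shares in the other classes lay far above that background.

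In fibroblasts Klf4 was the 1 member past the fold downward of 6 measured, where 2.82% of all measured genes were, and none was past it upward, where 1.18% of genes were. The level was 501 CPM (487 to 515) in sham against 323 CPM (306 to 340) in JVL-14, a ratio of 0.644 (0.607 to 0.683). Of the fibroblasts, 837 (57.3%) had a Klf4 UMI in sham and 323 (47.1%) in JVL-14, and after thinning 36.3% and 27.6% did. The ratio lay close to the fold limit. It stayed below 1 under all 14 alternative settings, from -0.71 to -0.40 on the log2 scale, but did not pass 1.5-fold under 4 of them. Markers of other cell types also differed in the fibroblast class: the 7 of skeletal muscle summed to 185 CPM in sham against 7.0 CPM in JVL-14, the 9 of macrophages to 76.4 and 25.1 CPM, and the 6 epithelial ones to 6.68 and 1234 CPM, with 5237 of the 5245 JVL-14 Bpifa1 UMIs in 1 cell. Leaving out every fibroblast with a UMI of such a marker, alternatives chosen after seeing the data, gave Klf4 log2 ratios of -0.66 without epithelial markers, -0.55 without skeletal muscle markers and -0.55 without macrophage markers, and the last 2 were short of the fold.

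The lower Klf4 was uneven among the fibroblast clusters. It was largest in cluster 21, led by Igfbp5 and the interferon-induced genes Ifit3 and Ifit1, with 648 CPM in sham against 212 CPM in JVL-14, a ratio of 0.327 (0.236 to 0.444). This cluster had 108 and 24 cells, and 5 cells held 72.7% of its JVL-14 UMIs. Cluster 26, led by Igfbp5 and Myoc, had 591 and 416 CPM, a ratio of 0.704 (0.639 to 0.774), and cluster 5, led by the cartilage and tendon gene Comp, had 351 and 248 CPM, a ratio of 0.707 (0.623 to 0.802). Cluster 0, led by Dcn and Lum, had a ratio of 0.787 (0.694 to 0.891). The remaining pair showed no such difference: the ratio was 0.993 (0.671 to 1.46) in the shallow cluster 19 and 1.04 (0.73 to 1.46) in the Apod-led cluster 24. Cluster 35, led by Dcn, Clec3b and Ccl11, had the highest sham level at 1458 CPM and was nearly confined to sham, with 60 cells against 2. Without clusters that came almost wholly from 1 library, the fibroblast log2 ratio was -0.54, short of the fold.

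**Figure D2:**
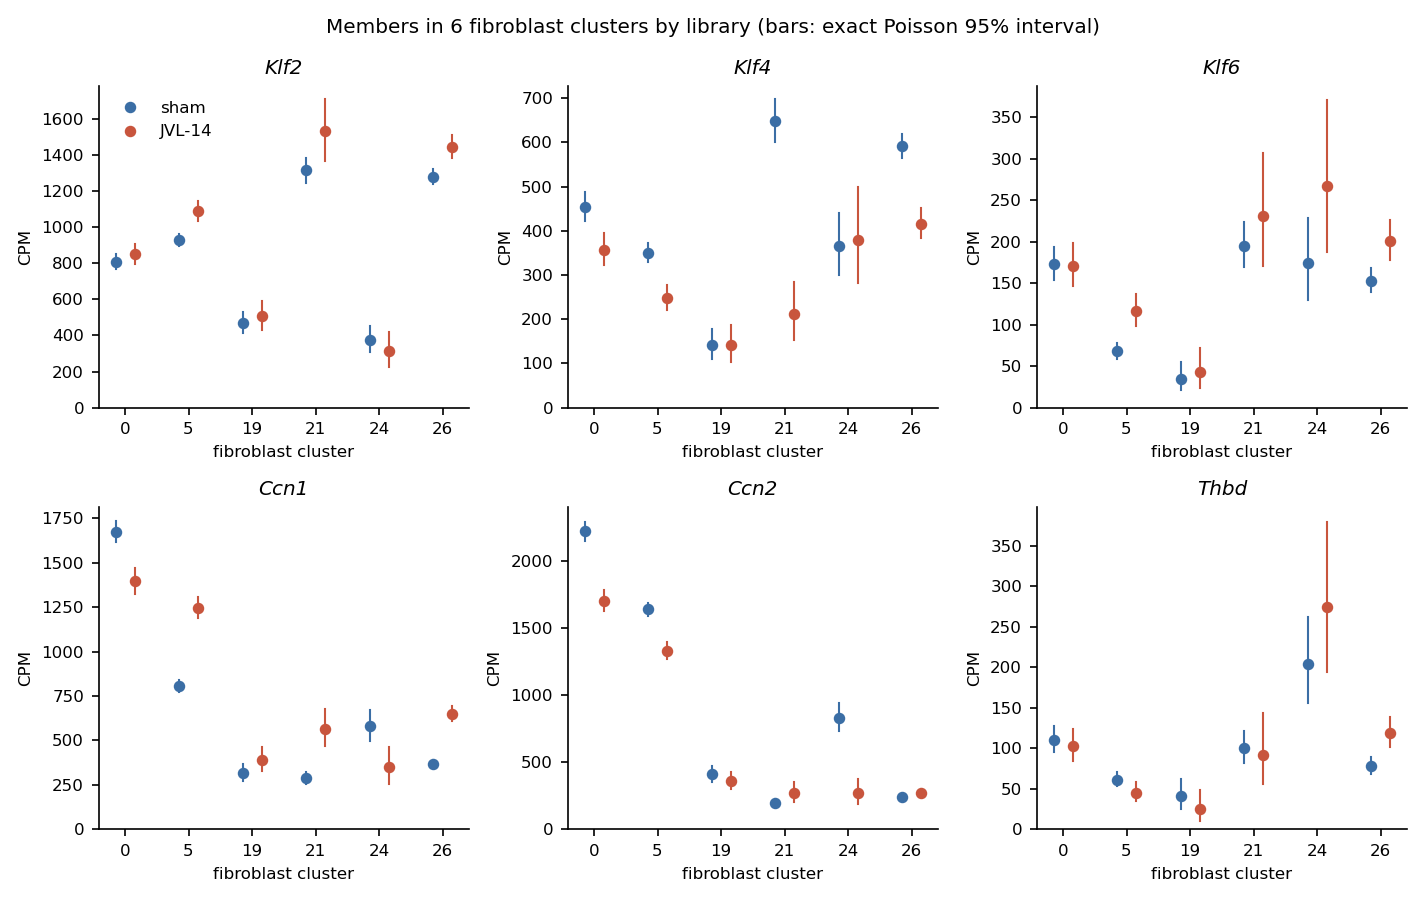
Level (CPM, vertical axis) of Klf2, Klf4, Klf6, Ccn1, Ccn2 and Thbd in 6 fibroblast clusters (horizontal axis), sham in blue and JVL-14 in red, with 95% Poisson bars. Klf4 is lower in JVL-14 in clusters 0, 5, 21 and 26, Ccn1 is higher in clusters 5, 21 and 26, and Ccn2 is lower in clusters 0, 5 and 24.

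Among the immune classes Klf4 was lower in JVL-14 in dendritic cells, at 288 and 197 CPM, a ratio of 0.683 (0.548 to 0.846), and in monocytes, at 336 and 257 CPM, a ratio of 0.765 (0.593 to 0.977). The monocyte difference did not hold after thinning, which gave a log2 ratio of 0.42. Macrophages had 398 and 336 CPM, a ratio of 0.844 (0.753 to 0.944). Within them the MHC class II-high cluster 1 had a ratio of 0.805 (0.715 to 0.905), whereas in cluster 14, led by C1qa, Pf4 and Ccl8, 58 sham UMIs stood against 4 in JVL-14. Cluster 14 held 601263 UMIs of all genes in 377 sham cells and 223694 in 158 JVL-14 cells, so these raw counts overstate the gap in level. The third and smallest, cluster 22 (46 and 21 cells), went the other way at 227 and 341 CPM, a ratio of 1.51 (0.917 to 2.45) whose interval included 1, and 5 cells held all of its JVL-14 UMIs.

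B cells went the other way. Klf4, which restrains proliferation in resting B cells, was at 151 CPM (121 to 186) in sham against 272 CPM (229 to 322) in JVL-14, a ratio of 1.80 (1.37 to 2.38). It was the 1 gene past the fold upward of 3 measured, where 17.4% of all measured genes were, and none was past it downward, where 7.47% were. The median log2 ratio of all genes in B cells was 0.18. The share of cells with a UMI was 25.3% in sham and 31.7% in JVL-14 at median depths of 2779 and 2779.5. No small set of cells held the difference, since 5 cells had 31.8% and 28.3% of the UMIs. Klf4 in B cells kept its direction under all 13 settings that could be applied, from 0.67 to 0.94 on the log2 scale. Of the KLF2 targets in lymphocyte traffic, 4 of 5 measured in B cells had a ratio above 1 and none was past the fold upward. Of all measured genes in B cells, 65.9% had a ratio above 1. The exit receptor S1pr1 was at 144 and 193 CPM (ratio 1.34, 0.991 to 1.82), and the integrin Itgb7 was at 36.1 and 9.86 CPM (ratio 0.273, 0.0806 to 0.745). Both were named after their values were seen.

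Klf6, an immediate early Krüppel-like factor of many cell types, was ordered differently from the other 2. Mast cells (998 CPM) and macrophages (913 CPM) led in sham, within counting error of each other, and endothelial cells stood at 286 CPM. The Klf6 ratio was above 1 in 10 of 11 classes, in 6 of them beyond counting error, and past the fold in none. Neutrophil precursors (82 and 129 cells) were not compared, because B lineage genes were among their leading genes. They had Klf6 at 214 and 120 CPM, Klf4 at 219 and 132 CPM, and Klf2 at 332 and 435 CPM. There 2 of 3 measured members, Klf4 and Klf6, were past the fold downward, where 15.1% of all measured genes were. None was past it upward, where 11.9% were. Innate lymphoid cells had 467 and 692 CPM, a ratio of 1.48 (1.20 to 1.82), mast cells 998 and 1347 CPM, a ratio of 1.35 (1.07 to 1.69), and fibroblasts 132 and 160 CPM, a ratio of 1.21 (1.11 to 1.33). In the Comp-led fibroblast cluster 5 the ratio was 1.71 (1.38 to 2.12), from 68.2 to 116 CPM. Cluster 24 had a ratio of 1.54 (0.977 to 2.40). Endothelial cells had 286 and 361 CPM, a ratio of 1.26 (0.883 to 1.78) whose interval included 1, and in endothelial cluster 12 the ratio was 1.59 (1.04 to 2.40). Without the 5 highest cells of each library the endothelial log2 ratio was -0.40.

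Among the endothelial products, Nos3 and Edn1 were measured only in blood endothelial cells, and Thbd also in 4 other classes. The endothelial class had 2 clusters of unlike make-up. Cluster 12, led by Plvap, a protein of fenestrated and venous endothelium, had 96 sham and 43 JVL-14 cells. Cluster 13, led by Fabp4, Aqp1 and Gpihbp1, which mark capillaries handling fatty acids, had 72 sham cells and 3 JVL-14 cells. Skeletal muscle cells were also 249 in sham and 3 in JVL-14, and summed muscle markers in the endothelial class were 450 and 22.5 CPM. Whether tissue taken with the dura had a part in cluster 13 was not tested. No cluster carried the name of lymphatic endothelium. Blood endothelial markers summed to 14295 and 16929 CPM, and all 11 were detected. Haemoglobin UMIs were 29173 CPM in sham against 616 CPM in JVL-14, and 1 sham cell drew over 5% of its UMIs from haemoglobin genes. Leaving out such cells, an alternative chosen after seeing the data, gave log2 ratios of 2.75 for Edn1 and 1.25 for Ccn2, against 2.81 and 1.29 with them. The 5 plasma cell markers summed to 3122 CPM in sham against 37.6 CPM in JVL-14, and 1 sham cell held 1281 of the 1282 sham UMIs of Jchain, the joining chain of antibodies. The part of that cell in the differences was not tested.

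Of the 10 members, all measured in endothelial cells, 2 were past the fold upward (Edn1 and Ccn2), where 15.9% of all measured genes were, and 2 downward (Nos3 and Piezo2), where 17.7% were. A share of 2 in 10 is near that background. The intervals of the 2 lower genes included 1.

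**Figure D3:**
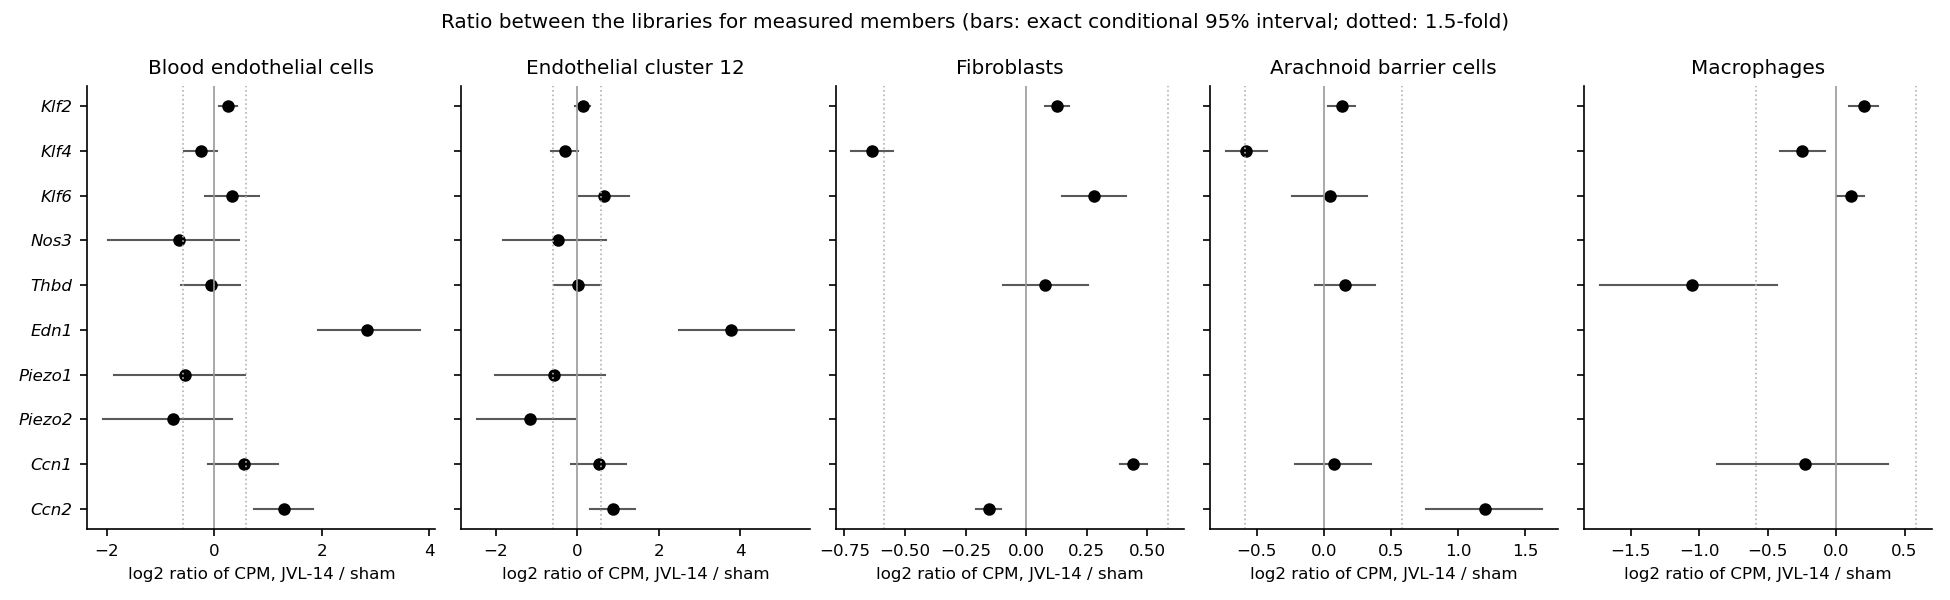
Log2 ratio of JVL-14 over sham (horizontal axis) of each measured gene (vertical axis) in 5 panels: blood endothelial cells, endothelial cluster 12, fibroblasts, arachnoid barrier cells and macrophages. Each panel has its own horizontal scale, points carry 95% counting intervals and dotted lines mark 1.5-fold. Edn1 at 2.81 and Ccn2 at 1.29 lie farthest to the right in endothelial cells, and Klf4 lies left of 0 in fibroblasts at -0.63.

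Edn1 encodes the precursor of endothelin-1, the vasoconstrictor that laminar shear represses. Its level was 35.7 CPM (20 to 59) in sham against 255 CPM (177 to 357) in JVL-14, from 15 and 34 UMIs, a ratio of 7.15 (3.79 to 14.1). The UMIs came from 7 of 168 sham cells (4.17%) and 5 of 46 JVL-14 cells (10.9%), all 5 of them in cluster 12. In that cluster 3 sham cells held 2 UMIs each, and the 5 JVL-14 cells held 13, 10, 8, 2 and 1. The difference was thus one of level in a handful of cells: 3 JVL-14 cells were above all sham cells, of which the highest, in cluster 13, had 5 UMIs. Leaving out the 5 highest cells of each library removed every JVL-14 Edn1 UMI. The log2 ratio of -0.45 then rests on the 0.5 added to each count and does not measure the remaining cells. Of the 5 JVL-14 cells, 4 also had UMIs of the adhesion molecule Icam1 (8, 5, 4 and 2), and the cell with 13 Edn1 UMIs had none. All 7 sham cells with Edn1 lacked Icam1. Among all endothelial cells, Icam1 was itself rarer in sham, found in 7 of 168 cells (4.17%) against 12 of 46 (26.1%) in JVL-14. The 4 JVL-14 cells with both genes had 3709 to 6826 UMIs, and the 7 sham cells 1690 to 5436. Whether the 2 genes go together was not tested. Edn1 was near absent elsewhere, with 21 and 12 UMIs in all fibroblasts and 0 in arachnoid barrier cells, which allows up to 0.870% and 2.48% of those cells to carry a UMI and sets no limit on cells that express the gene.

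**Figure D4:**
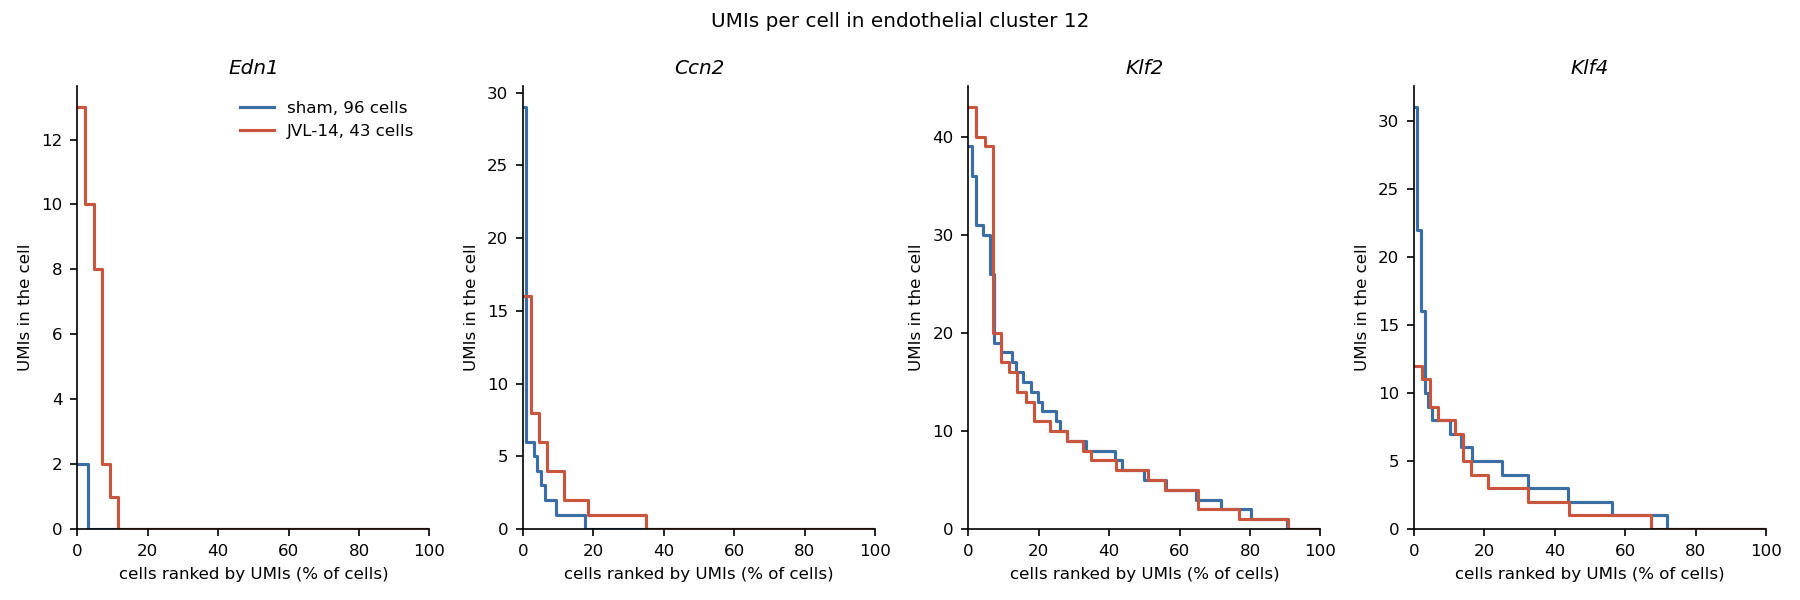
UMIs per cell (vertical axis) of Edn1, Ccn2, Klf2 and Klf4 in the 96 sham (blue) and 43 JVL-14 (red) cells of endothelial cluster 12, ranked from highest to lowest, with rank as a percent of cells on the horizontal axis. Edn1 reaches 13 UMIs in JVL-14 and 2 in sham, and Klf2 is spread over most cells of both.

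Nos3, endothelial nitric oxide synthase, is a KLF2 target. It was at 95.3 CPM (68.1 to 130) in sham against 60.1 CPM (26 to 118) in JVL-14, from 40 and 8 UMIs, a ratio of 0.631 (0.255 to 1.37). It was found in 34 sham cells (20.2%) and 8 JVL-14 cells (17.4%). In B cells, which should lack it, no cell had a UMI, which allows up to 1.76% and 1.83% of cells with a UMI, at medians of 2779 and 2779.5 UMIs against 1771 and 2294.5 in endothelium. A difference in Nos3 of the size seen was not detectable at this depth. Within cluster 12 the levels were 87.8 and 63.0 CPM, a ratio of 0.717 (0.281 to 1.62).

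Thbd, thrombomodulin, the endothelial cofactor that turns thrombin towards protein C activation, was nearly equal in endothelium, at 298 CPM (248 to 355) in sham against 286 CPM (202 to 392) in JVL-14. The ratio was 0.958 (0.648 to 1.39), with detection in 41.1% and 45.7% of cells. Arachnoid barrier cells held as much, at 281 and 314 CPM, a ratio of 1.12 (0.958 to 1.30). Fibroblasts had 84.6 and 89.4 CPM, a ratio of 1.06 (0.935 to 1.19), and among their clusters the Apod-led cluster 24 was highest at 204 and 275 CPM. The Myoc-led cluster 26 had 77.9 and 119 CPM, a ratio of 1.52 (1.24 to 1.87). The shallow cluster 19 lay on the other side at 40.7 and 24.4 CPM, from 21 and 8 UMIs, a ratio of 0.60 (0.23 to 1.41). In macrophages Thbd was the 1 gene past the fold downward of 5 measured, where 4.93% of all measured genes were, and none was past it upward, where 3.82% were. The levels were 41.8 and 20.2 CPM, a ratio of 0.482 (0.302 to 0.744), but only 36 of 711 sham cells (5.06%) and 11 of 345 JVL-14 cells (3.19%) had a UMI. The 5 highest cells of each library held 55.7% and 76.9% of those UMIs. B cells had smaller shares, 2.35% and 1.83%, at 6.87 and 5.92 CPM. Few macrophages thus held Thbd. Without the 5 highest cells of each library the log2 ratio was -1.88, against -1.03 with them. That removal takes 5 of the 11 JVL-14 cells with a UMI but 5 of the 36 sham ones. It therefore cannot show whether few cells held the difference.

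Piezo1, the mechanically gated cation channel that endothelial cells and red cells use to sense flow, was low everywhere. Endothelial cells stood first in sham, within counting error of innate lymphoid cells, and second in JVL-14. They had 88.2 CPM (62.1 to 122) in sham against 60.1 CPM (26 to 118) in JVL-14, a ratio of 0.682 (0.274 to 1.49). Innate lymphoid cells had 51.1 and 65.0 CPM, a ratio of 1.27 (0.621 to 2.48). Monocytes had 20.1 and 30.6 CPM, a ratio of 1.52 (0.628 to 3.48) that was nominally past the fold from 18 and 10 UMIs. In that class 12.6% of all measured genes were past it upward and 11.1% downward, and of the 5 measured members Piezo1 alone was. Fibroblasts had 6.58 and 8.58 CPM and macrophages 10.5 and 10.1 CPM. No Piezo1 difference was larger than counting error.

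Piezo2, the related channel best known from touch neurons, was in endothelium found in cluster 12 alone. There it was at 140 CPM (101 to 188) in sham against 63.0 CPM (27.2 to 124) in JVL-14, from 43 and 8 UMIs, a ratio of 0.45 (0.183 to 0.969), and 21.9% and 16.3% of cells had a UMI. None of the 72 sham cells of cluster 13 had a UMI, which allows up to 4.17% of cells with a UMI at a median of 1493.5 UMIs per cell. Over the whole class the levels were 102 and 60.1 CPM, a ratio of 0.587 (0.238 to 1.26), and without doublet removal the log2 ratio was 0.52. In fibroblasts Piezo2 was at 17.1 CPM (14.6 to 19.9) and 22.6 CPM (18.4 to 27.5), a ratio of 1.32 (1.02 to 1.70), and the Dcn-led cluster 0 was highest at 41.4 and 42.1 CPM. No macrophage, monocyte, dendritic cell, mast cell, innate lymphoid cell, T cell or B cell of either library had a Piezo2 UMI.

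Ccn1 and Ccn2, YAP and TAZ target genes whose proteins are secreted into the matrix and bind integrins, stood highest in fibroblasts among the 11 classes compared, and they differed in direction there. Ccn1 was at 716 CPM (699 to 733) in sham fibroblasts and 973 CPM (944 to 1002) in JVL-14, a ratio of 1.36 (1.31 to 1.41), with 46.5% and 53.6% of cells, or 34.6% and 43.0% after thinning. Ccn2 was at 1037 CPM (1017 to 1058) and 932 CPM (904 to 961), a ratio of 0.898 (0.866 to 0.931), with 53.3% and 55.2% of cells. In B cells 1.18% and 0.610% of cells had a Ccn1 UMI and 0.588% and 0% a Ccn2 UMI, far under the fibroblast shares. Neither gene was past the fold. Ccn1 kept its direction under all 14 settings, from 0.25 to 0.54 on the log2 scale, whereas Ccn2 came to 0.011 with coarser clusters. Without fibroblasts carrying epithelial, skeletal muscle or macrophage markers Ccn1 was at 0.47, 0.43 and 0.37 and Ccn2 at -0.13, -0.16 and -0.21. Mural cells, too few to compare, had more of both genes in JVL-14 than fibroblasts, at 1910 and 1969 CPM.

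The fibroblast clusters did not share 1 direction for this pair of genes. Clusters 0 and 5 held the most of both genes. In cluster 0 both were lower in JVL-14, Ccn1 at 1675 and 1397 CPM (ratio 0.834, 0.782 to 0.888) and Ccn2 at 2218 and 1702 CPM (ratio 0.767, 0.725 to 0.812). In the Comp-led cluster 5 they split, with Ccn1 at 806 and 1248 CPM (ratio 1.55, 1.45 to 1.65) and Ccn2 at 1636 and 1327 CPM (ratio 0.811, 0.768 to 0.857). Clusters 21 and 26 had higher Ccn1, with ratios of 1.97 (1.58 to 2.45) and 1.77 (1.62 to 1.94), and Ccn2 ratios of 1.36 (0.996 to 1.84) and 1.12 (0.985 to 1.27). In the Apod-led cluster 24 both were lower, at ratios of 0.603 (0.427 to 0.837) and 0.322 (0.221 to 0.459), but 5 cells held 85.9% and 80.6% of the Ccn2 UMIs there.

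Of the other 10 classes compared, Ccn2 was measured in endothelial and arachnoid barrier cells, and it was higher in JVL-14 in both. Endothelial cells had 160 CPM (124 to 203) in sham against 391 CPM (292 to 512) in JVL-14, from 67 and 52 UMIs, a ratio of 2.45 (1.67 to 3.57). A UMI was found in 17 sham cells (10.1%) and 16 JVL-14 cells (34.8%), or in 9.71% and 26.5% after thinning. All 17 sham cells were in cluster 12, and none of the 72 sham cells of cluster 13 had one. Within cluster 12 the levels were 218 CPM (169 to 277) and 401 CPM (299 to 528), a ratio of 1.84 (1.25 to 2.69), with 17.7% and 34.9% of cells. The largest single cells had 29 UMIs in sham and 16 in JVL-14, and 5 cells held 74.6% and 73.1% of the UMIs. The difference remained when the 5 highest cells of each library were left out, at a log2 ratio of 1.39. Over 13 settings it ran from 0.88 to 2.54. Fibroblast markers in the endothelial class summed to 85.8 and 45.1 CPM, with 2 of 10 higher in JVL-14 and Pdgfra, Dpt and Igfbp6 at 0 in both. In cluster 12, a UMI of Dcn, Col1a2 or Col3a1 was present in 2 of the 17 sham cells with Ccn2 and 2 of the 15 JVL-14 cells with it, and in 9 of 79 and 0 of 28 cells without it.

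Ccn1 in endothelium was at 160 and 233 CPM, a ratio of 1.46 (0.921 to 2.26), not distinguishable from 1, and at a log2 ratio of -0.63 without the 5 highest cells of each library. Arachnoid barrier cells repeated the Ccn2 difference at a lower level, with 46.1 CPM (38.3 to 54.9) in sham against 106 CPM (83.1 to 133) in JVL-14, a ratio of 2.30 (1.70 to 3.09). Ccn2 was the 1 gene past the fold upward of 6 measured there, where 6.18% of all measured genes were, and none was past it downward, where 6.95% were. It had the same direction in both arachnoid clusters, at 3.30 (1.49 to 7.58) in cluster 11 and 2.19 (1.56 to 3.04) in cluster 25. The share of cells was 17.4% and 19.8%, or 2.31% and 9.62% after thinning, and with at most 5% mitochondrial UMIs the log2 ratio was 0.38. Ccn1 in these cells was at 182 and 192 CPM, a ratio of 1.05 (0.863 to 1.28). It was past the fold in cluster 11, at 63.8 and 155 CPM and a ratio of 2.43 (1.33 to 4.44), with 88.0% of the JVL-14 UMIs there in 5 cells, and at 1.01 (0.809 to 1.24) in cluster 25. Over 13 settings its log2 ratio ran from -0.97, without the 5 highest cells, to 1.39, with the 10 genes among the variable genes.

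Lists of related genes were read in endothelial cells beside the median log2 ratio of all measured genes, 0.07. Of all measured genes there, 51.2% had a ratio above 1. Of 12 genes known from low or disturbed flow, 5 were measured, all with a ratio above 1, and 3 were past the fold upward, where 15.9% of all measured genes were, with a median of 2.04. Icam1, which holds leukocytes on the vessel wall, was at 42.9 and 255 CPM, a ratio of 5.96 (3.27 to 11.2). In cluster 12 alone Icam1 had a ratio of 4.84 (2.63 to 9.24), Vcam1 3.57 (1.92 to 6.76) and Vwf, the platelet-tethering factor richest in veins, 3.29 (2.25 to 4.84), so these held without the cluster nearly confined to sham. Few cells carried them: 5 JVL-14 cells held 73.5% of the Icam1, all of the Vcam1 and 92.6% of the Vwf UMIs, and 1 cell had 20 of the 28 Vcam1 UMIs. Without the 5 highest cells of each library the endothelial log2 ratio was 3.80 for Icam1, 1.64 for Vwf and -0.91 for Vcam1. No JVL-14 UMI of Vcam1 was left then, so its value rests on the 0.5 added to each count. In that setting 1 gene of the list remained past the fold among those still measured. Of the 19 shear-induced genes 14 were measured, 5 above 1 and 9 below, with a median of -0.08. The water channel Aqp1 was lowest at a ratio of 0.415 (0.328 to 0.521), from 1556 to 646 CPM. Aqp1 also leads cluster 13, and in cluster 12 its ratio was 0.849 (0.609 to 1.17). The arterial connexin gene Gja4 was highest at 2.70 (1.14 to 6.30), from 14 and 12 UMIs, with 91.7% of the JVL-14 UMIs in 5 cells. Without the 5 highest cells of each library its log2 ratio was 0.51, and in cluster 12 its levels were 45.5 and 94.5 CPM. Vcam1 and Vwf were named after their values were seen.

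The upstream and parallel pathways showed smaller or mixed differences in endothelium. Of the MEK5, ERK5 and MEF2 list 6 of 12 were measured, with 2 above 1 and a median of -0.14. All 5 measured of 14 other Krüppel-like factors were below 1, with a median of -0.51, and Klf13 was lowest at a ratio of 0.552 (0.364 to 0.812). Of the endothelin and nitric oxide list 4 of 15 were measured, none past the fold, and the endothelin receptor Ednrb was at 491 and 413 CPM. The 3 measured genes of the thrombomodulin and protein C list had a median of 0.38, none past the fold. Of 25 mechanosensors 13 were measured, 4 above 1, with a median of -0.05.

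YAP and TAZ targets other than Ccn1 and Ccn2 were measured for 8 of 22 genes in endothelium, 5 above 1, with a median of 0.37. Of the 8, 2 were past the fold upward, where 15.9% of all measured genes were. Myof, a membrane repair gene, was highest with 11.9 and 128 CPM, a ratio of 10.7 (3.8 to 37.2), from 5 and 17 UMIs. The sham UMIs came from 2 cells, and 5 cells held 82.4% of those in JVL-14. The Hippo and TEAD list had 5 measured of 15, 3 above 1, with a median of 0.12. The SRF and MRTF list had 9 of 16, 5 above 1, with a median of 0.12, and the actin crosslinker gene Flna was highest at a ratio of 2.49 (1.18 to 5.17). Of the lymphocyte traffic list S1pr1 alone was measured in endothelium, at a ratio of 0.65 (0.506 to 0.826). None of the 4 other CCN genes was measured there.

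In fibroblasts, where the median of all genes was 0.02, the YAP and TAZ targets gave 4 above 1 and 10 below of 14 measured, none past the fold, with a median of -0.08. Of all measured genes in fibroblasts, 54.5% had a ratio above 1. The angiomotin gene Amotl2 was highest at 1.49 (1.29 to 1.72) and the tissue factor gene F3 lowest at 0.683 (0.611 to 0.762). Of 10 measured Hippo and TEAD genes 8 were below 1, and the Hippo scaffold gene Sav1 was past the fold at 0.457 (0.397 to 0.525). Ccn3 and Ccn5, relatives of Ccn1 and Ccn2 in the CCN family, were at ratios of 0.507 (0.444 to 0.579) and 1.64 (1.38 to 1.95), on opposite sides. Of the other Krüppel-like factors 5 of 6 measured were below 1, and Klf13 was again lowest at 0.511 (0.442 to 0.589). In macrophages 3 of 5 were below 1, and Klf9, a glucocorticoid-induced factor, was lowest with 159 and 52.0 CPM, a ratio of 0.326 (0.249 to 0.423).

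**Figure D5:**
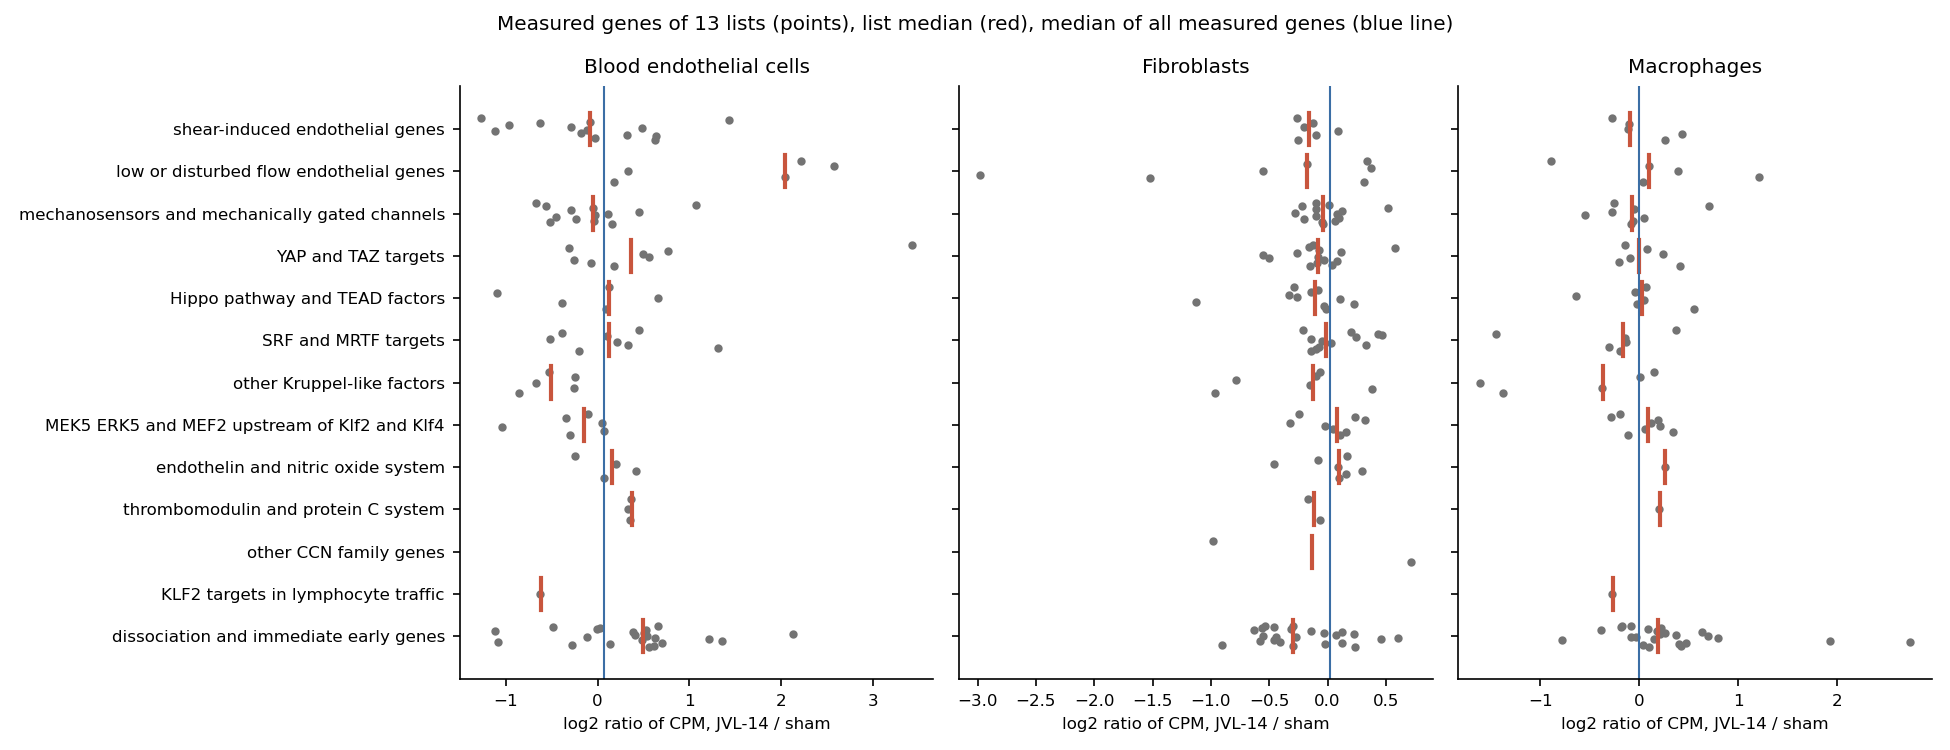
Log2 ratio of JVL-14 over sham (horizontal axis) for each measured gene of 13 lists (vertical axis) in blood endothelial cells, fibroblasts and macrophages, with the list median in red and the median of all measured genes in blue. In endothelial cells the list of low or disturbed flow genes has a median of 2.04 and that of other Krüppel-like factors -0.51.

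Genes that answer tissue dissociation, to which Klf2, Klf4 and Klf6 can also respond, differed by class as well. In endothelial cells 16 of 22 measured were above 1, with a median of 0.50, and the immediate early gene Ier3 was highest with 522 and 2284 CPM, a ratio of 4.38 (3.67 to 5.23), with 81.6% of the JVL-14 UMIs in 5 cells. In macrophages 17 of 24 were above 1, with a median of 0.19. In fibroblasts 17 of 24 were below 1, with a median of -0.29, and in arachnoid barrier cells 16 of 23 were below 1, with a median of -0.26. In B cells 14 of 18 were above 1, with a median of 0.34. Of all measured genes, 51.2% in endothelial cells, 48.5% in macrophages and 54.5% in fibroblasts had a ratio above 1. In arachnoid barrier cells 53.4% did, and in B cells 65.9%. The part of the dissociation genes in the differences of Klf2, Klf4, Klf6, Edn1 and Ccn2 was not tested.

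Across 15 classes in both libraries (30 points, which share libraries and depth), the genes whose levels followed each member most closely were ranked by Pearson's r of log2(CPM + 10), as a description. Klf6 was followed by the immediate early genes Ier2 (r = 0.949), Dusp1 (0.938) and Junb (0.928), and Klf2 by Tsc22d3 (0.880), Czib and Man2a1. Klf4 was followed by Nme2 (0.920), Ccdc50 (0.899) and H2-T22 (0.886), and Thbd by Dock4 (0.884), Gm22146 (0.869) and Afap1l1 (0.860). Nos3 was followed by Nova2 (0.965), Galnt15 and Cyp26b1, Edn1 by Usp43 (0.994), Gpr182 and Htr2a, and Piezo2 by Ephb4 (0.985), Tspan9 and Myo10. Piezo1 was followed by Prkch (0.911), AW112010 and Mfng. Ccn1 was followed first by Ccn2 (0.962), then by Sparc and Fbln5, and Ccn2 by Prss23 (0.973), Ntn4 and Fam20a.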

How the data were processed

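The authors deposited UMI counts per gene and barcode for 1 sham and 1 JVL-14 library, not normalised, written by Cell Ranger 8.0.0 per the file headers. The submitters' processing notes name mm39 as the build, and the gene annotation was not given in the sources used here. Genes were matched by symbol, and for 26 repeated symbols the gene with more UMIs was used. Retained barcodes had at least 200 genes and at most 10% mitochondrial UMIs. Scrublet marked 0.121% and 0.23% of barcodes, under 0.5%, so the top 5% of scores were removed (279 and 137), and doublets can remain. With scanpy 1.11.5, 2000 variable genes without the 10 members, 30 principal components, 15 neighbours and Leiden resolution 1 gave 37 clusters, of which 35 were named into 19 classes. A name needed a mean score of at least 0.5 and at least 3 markers raised 1.5-fold in at least 10% of cells. These limits were set after seeing the data, and rebuilt names may differ from the study's. Erythroid, Schwann, olfactory, precursor and unnamed clusters, and classes under 20 cells in a library, were not compared.

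UMIs were summed per class as CPM with exact Poisson intervals, shares carry exact Clopper-Pearson intervals, and ratios exact conditional binomial intervals (scipy 1.17.1), all at 95%. Limits for a count of 0 use 3 counts. Log2 ratios had 0.5 added to each count. Beside the members, each list's measured gene with the highest and the lowest ratio in endothelial cells, fibroblasts and macrophages was eligible for naming, with the 3 genes most like each member. Intervals and calls were checked on simulated counts. With 1 library per group no p-value is given. The members, the 13 lists and the rules were chosen with earlier results of these data known. Other filters, clusterings, scalings and depths were tried in 13 alternatives, and 1 more, which left out cells rich in haemoglobin, was chosen after seeing the data. So were 3 for fibroblasts alone, which left out cells with markers of another type.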

Additional observations from a re-analysis of the deposited data

Results flagged for a closer look

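Klf4 had opposite directions in B cells and fibroblasts. Its log2 ratio of JVL-14 over sham was 0.85 in B cells and -0.63 in fibroblasts. The difference between the 2 classes was not tested, since each group has 1 library.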

How the results depend on the processing

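No paired analysis was possible because each group has 1 library, and for the same reason no replicate could be left out. Over 14 alternatives, 661 member ratios were recomputed, and 564 stayed within the counting interval of the reported ratio. The sign differed from the reported one in 52. Of these 44 concerned 19 ratios whose interval included 1, and they reached -4.02 on the log2 scale for Klf2 in T cells and -1.56 for Klf4 in mast cells without the 5 cells with most UMIs. That setting left no JVL-14 UMI of Klf2 in T cells, so its value rests on the 0.5 added to each count. The other 8 concerned ratios whose interval excluded 1. They included Ccn2 in fibroblasts (0.011) and Klf6 in monocytes (-0.078) at Leiden resolution 0.5. Klf4 in monocytes changed in cells thinned to 1500 UMIs (0.42), and Klf6 in macrophages when averaged over clusters (-0.022). Without the 5 cells with most UMIs, Klf2 changed in arachnoid barrier cells (-0.038), endothelial cells (-0.028) and innate lymphoid cells (-0.0053). So did Edn1 in endothelial cells (-0.45), where that setting left no JVL-14 UMI. The 1 fibroblast member past the fold downward (Klf4) became 0 with at least 500 genes per cell, with the members among the variable genes, without clusters of 1 library and averaged over clusters. The 2 endothelial members past the fold downward became 1 without doublet removal, without clusters of 1 library and as a mean over cells, 0 after thinning and 4 without the 5 cells with most UMIs, where the 2 upward became 1. In macrophages, counting all genes with any UMI gave 1 upward and 2 downward, and leaving out the 5 cells with most UMIs gave 0 downward. The latter count takes measured genes only, and the log2 ratio of Thbd was then -1.88. The cause of the changed counts was not tested. Depth limits the genes with few UMIs, such as Nos3 in endothelial cells (40 and 8) and Piezo1 in monocytes (18 and 10). The list of low or disturbed flow genes had 3 endothelial genes past the fold, 5 without doublet removal, 8 with all genes counted and 1 without the 5 cells with most UMIs.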

Other observations

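Mural cells, the contractile cells around vessels, were too few to compare (21 in sham and 17 in JVL-14). Their Ccn1 was at 740 CPM (488 to 1077) in sham against 1910 CPM (1551 to 2328) in JVL-14, and their Ccn2 at 439 CPM (251 to 712) and 1969 CPM (1603 to 2392). Few cells held these UMIs, with Ccn1 in 3 sham and 8 JVL-14 cells and Ccn2 in 6 and 8. No mural cell of the sham library had a UMI of Nos3, Thbd, Edn1, Piezo1 or Piezo2. These cells held 36486 UMIs of all genes, and the Poisson interval of such a 0 reached 101 CPM. The sham endothelial levels of Nos3, Edn1 and Piezo1 lay below that limit, and those of Piezo2 and Thbd above it.

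An unnamed cluster led by the osteoblast genes Bglap2 and Bglap (cluster 2, 83 and 56 cells) had Ccn1 at 1275 and 1293 CPM and Ccn2 at 1891 and 1063 CPM, a Ccn2 ratio of 0.562 (0.502 to 0.629). Klf4 in the same cells was at 171 and 230 CPM. A second unnamed cluster, led by Vpreb3 and Cd79a (cluster 9, 172 and 178 cells), had Klf2 at 937 and 1581 CPM, a ratio of 1.69, and Klf4 at 128 and 213 CPM, a ratio of 1.66. Klf2 in the named B cells had a ratio of 0.92 (0.822 to 1.03).

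Nos3 was also found outside endothelium in olfactory neurons, at 17.6 CPM in sham against 8.38 CPM in JVL-14, and in the choroid plexus of the sham library at 12.4 CPM.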
